A study of Mus musculus with 4 samples.

Results

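Fibroblasts make many of the growth factors that act on neighbouring epithelium. The 10 genes described here are 7 such ligands (Fgf2, Fgf7, Fgf10, Hgf, Areg, Ereg and Hbegf) and 3 receptors (Fgfr1, Fgfr2 and Egfr), chosen by name. All 10 were found among the 22456 genes of the table, and all 10 passed the filter on low values that left 14548 genes for testing. RNA had been sequenced from the fibroblasts of mouse mammary tumours in Balb/cAnN mice. Tumours had been started by injecting 4T1 cells, a Balb/c mammary carcinoma line, into the fat pad and were taken after 8 days. In the DMSO group (2 libraries) the 4T1 cells had been kept in the solvent DMSO for 5 days before injection. In the GSK group (2 libraries) they had received 5 µM of the compound GSK269962A for 5 days. Per the labels, the compound was given to the cancer cells, and the fibroblasts sequenced were cells of the host. No genetic change of the host is given in the labels, and both groups rest on a single cancer cell line. The fibroblasts are defined by depletion, as the cells left after removal of those carrying CD45, CD31, CD326 or human CD2.

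FGF7 and FGF10 are secreted by mesenchyme and act on the epithelial isoform of FGF receptor 2, while FGF2 acts mainly on the mesenchymal isoforms of the FGF receptors. HGF is made by stromal cells and acts on the receptor MET. Amphiregulin (Areg), epiregulin (Ereg) and heparin-binding EGF-like growth factor (Hbegf) are made as membrane-bound precursors, are released by proteases and act on EGFR. All of these receptors are tyrosine kinases that signal through ERK, among other routes.

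The largest differences among the 10 genes were in a pair of ligands. Fgf7 was 1.55-fold and Ereg 1.47-fold lower in fibroblasts from GSK tumours, and neither passed the test over all genes (limma adjusted p = 0.0697 and 0.0922). The other 8 genes, Fgf10, Hgf, Hbegf and the 3 receptors among them, differed by less than 0.15 on the log2 scale. By limma, none of the 10 genes passed an adjusted p of 0.05, against 0.282% of all genes tested (41 genes). At an unadjusted p under 0.05 there were 3 of the 10 (Fgf7, Ereg and Areg), against 16.0% of all genes. Both GSK libraries lay below both DMSO libraries in 4 of the 10 genes (Fgf7, Ereg, Areg and Egfr), against 24.5% of all genes. In none of the 10 did both lie above, against 24.1% of all genes. The median difference was -0.057 over the 10 genes and -0.0007 over all genes tested. The number of calls over all genes was 7 with DMSO library 1 left out, 194 with DMSO library 2 left out and 70 with GSK library 1 left out. With a library left out, Fgf7 ranged from -0.758 (without DMSO library 2) to -0.497 (without DMSO library 1). Ereg ranged from -0.730 to -0.373 in the same settings. The fit without DMSO library 2 rests on DMSO library 1 alone for that group, the library where both genes were highest.

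Expression is given here as the log2 values deposited by the authors, which run from -1.035 to 20.58 over the table, and the read depth is unknown. The median range of a gene over the 4 libraries was 0.113 for tested genes and 0.0178 for genes below the filter. Low genes thus varied less, as on a scale that shrinks them towards their mean. If the values were made that way, the difference of a low gene such as Areg is understated, and so is its spread. Fibroblast markers were high (10 genes, mean 15.52 to 15.62 over the 4 libraries), while markers of the depleted cell types averaged 4.00 to 4.17 (leukocyte), 5.12 to 5.21 (endothelial) and 2.99 to 3.07 (epithelial). Epcam, which encodes the CD326 used for depletion, stood at 0.32 in each library. Whether a group's libraries came from different mice is not stated, so the spread behind each p-value may be technical, and exact permutation of 2 against 2 could not go below p = 0.333.

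**Figure D1:**
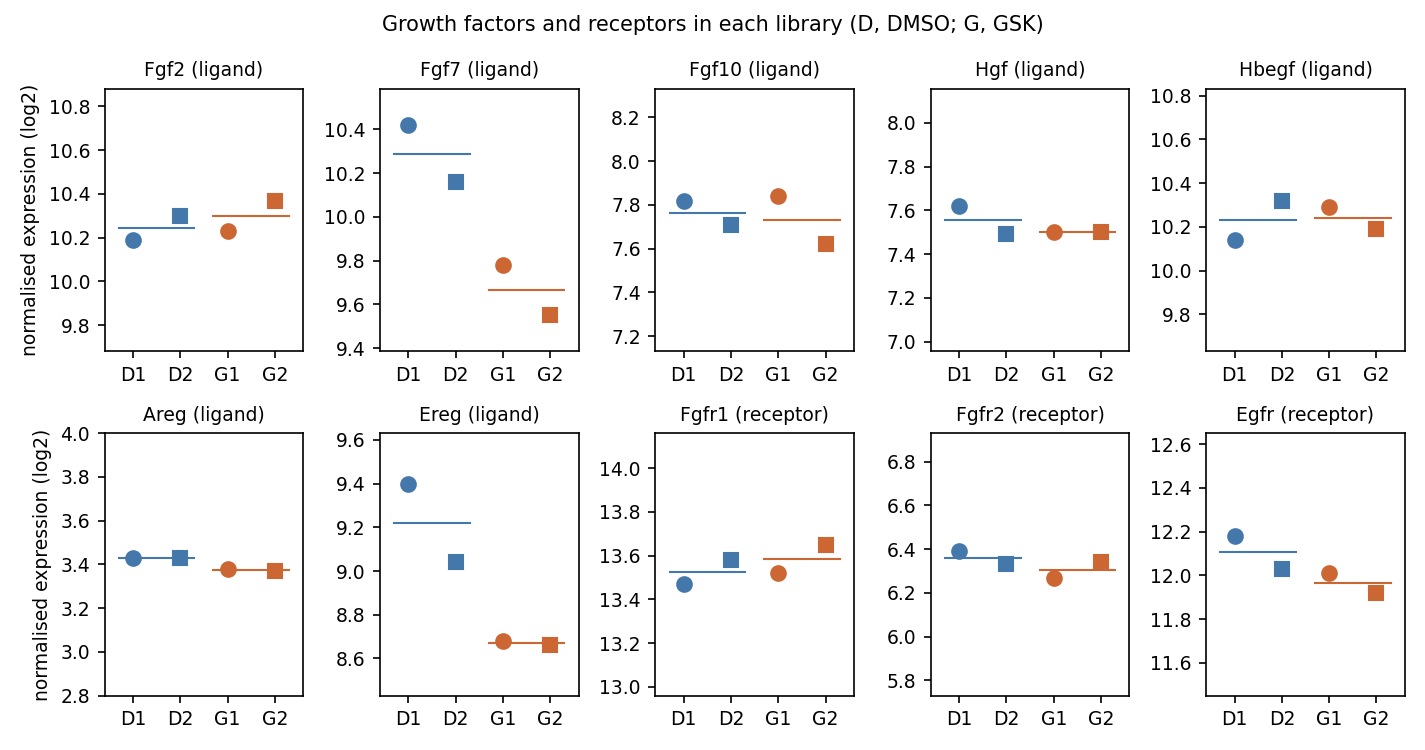
Normalised expression (log2, vertical axis) of the 10 genes in each library, with DMSO in blue and GSK in orange, circles for library 1, squares for library 2 and lines at the group means. All panels span the same number of log2 units. Fgf7 and Ereg show a gap between the groups, from 10.16 down to 9.78 and from 9.04 down to 8.68.

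Among the FGF ligands, Fgf7 (keratinocyte growth factor, ENSMUSG00000027208, GRCm38 chromosome 2, 126034658 to 126091185) had the lowest estimate. Its values were 10.42 and 10.16 in the DMSO libraries, 1 before 2, and 9.78 and 9.55 in the GSK libraries in the same order, which is used throughout. Both GSK libraries were lower than both DMSO libraries, and library 1 was the higher of the 2 in each group. The means were 10.29 ± 0.18 (log2, SD, n = 2) in DMSO and 9.66 ± 0.16 in GSK, a difference of -0.63 ± 0.11 (SE) with a 95% interval of -0.88 to -0.37. Only 35 of the 14548 genes had a lower estimate, yet by p-value Fgf7 ranked 188th. Of the 41 called genes, 22 had a smaller difference than Fgf7, and the median SE of the called genes was 0.053.

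Fgf10, the close relative of Fgf7 that binds the same receptor isoform, had 7.82 and 7.71 in DMSO and 7.84 and 7.62 in GSK. The groups overlapped, and GSK library 1 held the highest value. The difference was -0.03 ± 0.08 (adjusted p = 0.874), with a 95% interval of -0.23 to 0.16. Taken per length of transcript, Fgf7 exceeded Fgf10 by 3.34 and 3.18 (log2) in DMSO and by 2.67 and 2.66 in GSK, that is by 6.31-fold to 10.1-fold. Fgf7 was thus the more abundant of the pair in all 4 libraries, and the margin was narrower in both GSK libraries.

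The upstream sequences of the pair are shown because the genes share a receptor and had unlike estimates. Neither gene passed, and their estimates were not tested against each other. Each run is the 250 bases before the start of the gene in RefSeq (GRCm38.p6, plus strand, 5′ to 3′). For Fgf7 the start in GENCODE is the same. For Fgf10 the GENCODE gene begins further upstream, at 118669791, so its window lies inside the gene as annotated there. Windows were searched on both strands for the cAMP response element TGACGTCA and the AP-1 site TGANTCA, neither of which contains the other. A match would be in capitals.

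Fgf7, chr2:126034408-126034657: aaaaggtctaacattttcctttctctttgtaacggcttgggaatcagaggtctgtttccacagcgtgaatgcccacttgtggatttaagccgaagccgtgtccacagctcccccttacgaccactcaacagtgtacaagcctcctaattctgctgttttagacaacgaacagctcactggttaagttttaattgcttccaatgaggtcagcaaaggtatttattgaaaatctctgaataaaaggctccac
Fgf10, chr13:118714449-118714698: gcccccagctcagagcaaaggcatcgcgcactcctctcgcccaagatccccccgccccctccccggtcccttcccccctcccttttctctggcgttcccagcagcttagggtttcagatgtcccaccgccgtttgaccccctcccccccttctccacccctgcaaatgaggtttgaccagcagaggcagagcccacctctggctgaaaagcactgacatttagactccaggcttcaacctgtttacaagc

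Neither window holds either motif. Over all 32851 windows of this length, 1.55% held TGACGTCA and 6.75% held TGANTCA. The windows differ in base composition, with 43.6% G and C for Fgf7 and 61.2% for Fgf10, around a median of 52.4% over all windows. RefSeq windows were found for 7 of the 10 genes (8 windows, since Hgf has a pair), not for Fgfr1, Ereg and Hbegf, and the 1 match among the 8 was in Areg.

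Fgf2 (basic FGF), a ligand without a classical secretion signal, had 10.19 and 10.30 in DMSO and 10.23 and 10.37 in GSK. The groups overlapped and library 2 was the higher in each, the reverse of Fgf7. The difference was 0.06 ± 0.06 (adjusted p = 0.701), with a 95% interval of -0.09 to 0.21. Fgf2 shares 640 bases of exon with Nudt6 on the opposite strand. Nudt6 itself stood at 3.98 to 4.04 in the 4 libraries, and whether the counting used strand was not given in the sources used here.

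Hgf (hepatocyte growth factor, or scatter factor) had 7.62 and 7.49 in DMSO and 7.50 and 7.50 in GSK. DMSO library 1 was high and the 3 others lay together, so the groups overlapped. The difference was -0.06 ± 0.06 (adjusted p = 0.667), with a 95% interval of -0.19 to 0.08. Hgf shares 484 bases of exon with Gm43489 on the same strand, which stood at 3.19 to 3.26.

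Of the EGF-family ligands, Ereg (epiregulin, ENSMUSG00000029377, chromosome 5, 91074622 to 91093646) had 9.40 and 9.04 in DMSO and 8.68 and 8.66 in GSK. Both GSK libraries were lower, and DMSO library 1 stood above DMSO library 2 by about as much as DMSO library 2 stood above GSK. The means were 9.22 ± 0.25 (SD, n = 2) and 8.67 ± 0.02, a difference of -0.55 ± 0.11 (SE), with a 95% interval of -0.82 to -0.29. Only 57 genes had a lower estimate. Without DMSO library 1 the difference was -0.373 (adjusted p = 0.149), so its size rested in part on that library.

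Areg (amphiregulin), the neighbour of Ereg on chromosome 5 (91139599 to 91148432), was the lowest of the 10 genes, just above the filter of 3.32. Its values were 3.43 and 3.43 in DMSO and 3.38 and 3.37 in GSK, with both GSK libraries below. The difference was -0.06 ± 0.02 (limma unadjusted p = 0.0191, adjusted p = 0.206). With a variance prior without trend, limma's adjusted p for Areg was 0.492. Per length, Ereg exceeded Areg by 4.21 and 3.84 (log2) in DMSO and by 3.54 and 3.52 in GSK, so epiregulin was the more abundant transcript of the pair in every library. The Areg window is shown as the only one of the 8 with a match, a TGACGTCA (in capitals) that begins 61 bases before the RefSeq start, on the plus strand.

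Areg, chr5:91139349-91139598: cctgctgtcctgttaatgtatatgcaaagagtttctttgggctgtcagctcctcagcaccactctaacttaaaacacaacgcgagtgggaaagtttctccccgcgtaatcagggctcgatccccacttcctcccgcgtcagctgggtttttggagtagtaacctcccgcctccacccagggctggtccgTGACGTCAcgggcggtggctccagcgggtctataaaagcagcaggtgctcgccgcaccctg

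Hbegf, which binds heparan sulphate as well as EGFR, had 10.14 and 10.32 in DMSO and 10.29 and 10.19 in GSK. The GSK values lay between the DMSO values. The difference was 0.01 ± 0.07 (adjusted p = 0.964), with a 95% interval of -0.16 to 0.18. That interval does not reach the difference estimated for Ereg, but Hbegf and Ereg were not tested against each other.

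Of the receptors, Fgfr1 and Fgfr2 were close to level between the groups. Fgfr1, the main FGF receptor of mesenchyme, had 13.47 and 13.58 in DMSO and 13.52 and 13.65 in GSK, a difference of 0.06 ± 0.07 (adjusted p = 0.7; 95% interval -0.11 to 0.23). Fgfr2, whose epithelial isoform binds FGF7 and FGF10, had 6.39 and 6.33 in DMSO and 6.27 and 6.34 in GSK, a difference of -0.06 ± 0.05 (adjusted p = 0.594; 95% interval -0.17 to 0.06). In both receptors the groups overlapped. Gene-level values do not separate the Fgfr2 isoforms, and 314 bases of its annotated exons also belong to Ctbp2 on the same strand. Ctbp2 stood far higher, at 10.15 to 10.21, and its part in the Fgfr2 values was not tested. Egfr had 12.18 and 12.03 in DMSO and 12.01 and 11.92 in GSK. Both GSK libraries were below both DMSO libraries, though GSK library 1 and DMSO library 2 almost touched. The difference was -0.14 ± 0.07 (adjusted p = 0.356), with a 95% interval of -0.31 to 0.02. In absolute size it exceeded the difference of 87.3% of all genes tested.

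**Figure D2:**
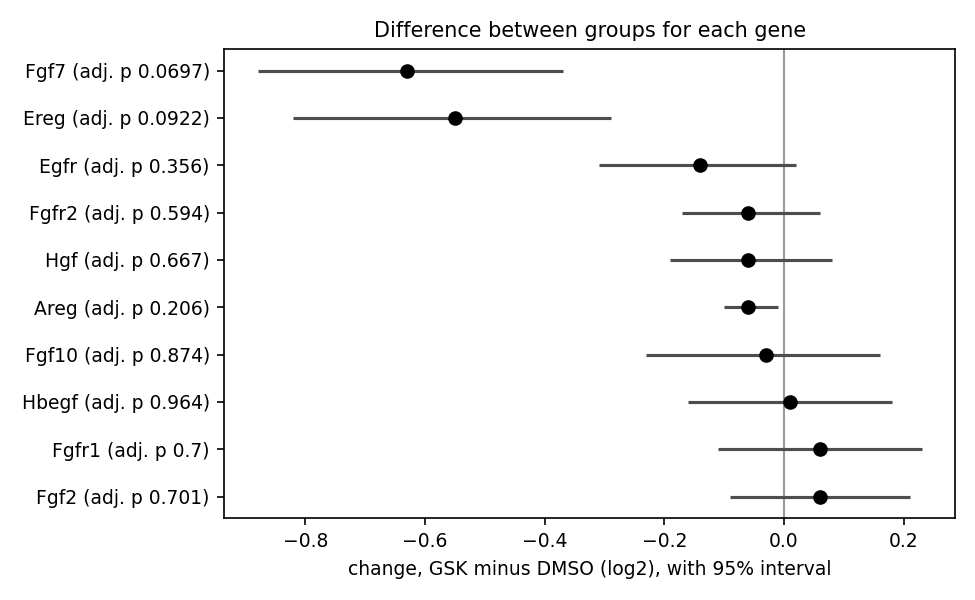
Difference between the groups for each of the 10 genes (horizontal axis, GSK minus DMSO, log2), with points for estimates, bars for limma's 95% intervals and adjusted p beside the names. The intervals of Fgf7, Ereg and Areg lie below 0 and the 7 others span it.

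Levels of different genes were compared after subtracting log2 of transcript length in kb, as the median over each gene's protein-coding transcripts. Fgfr1 was the most abundant at 11.63 (log2 per kb), above 95.4% of 12920 tested protein-coding genes. Next were Fgf2 at 11.18, Egfr at 10.48, Hbegf at 8.99 and Fgf7 at 8.67. Ereg at 6.90, Hgf at 6.13, Fgf10 at 5.71, Fgfr2 at 5.13 and Areg at 3.12 followed, Areg above only 4.95% of genes. Neighbours in this order were separate in their ranges over the 4 libraries except Hbegf and Fgf7, whose ranges overlapped. These fibroblasts thus held more Fgfr1 than Fgfr2 transcript per length in all 4 libraries, and more Hbegf than Ereg or Areg. The place of Fgf2 depends on the length used: its 5 coding transcripts have a median of 535 bases and a longest of 5973, and with the longest its level was 7.70, below Egfr (8.68), Hbegf (8.99) and Fgf7 (8.56). Fgfr1, Egfr and the lowest 5 stayed in place, so 7 of the 10 genes kept their rank, with Hgf (5.73) and Fgf10 (5.71) then close together.

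**Figure D3:**
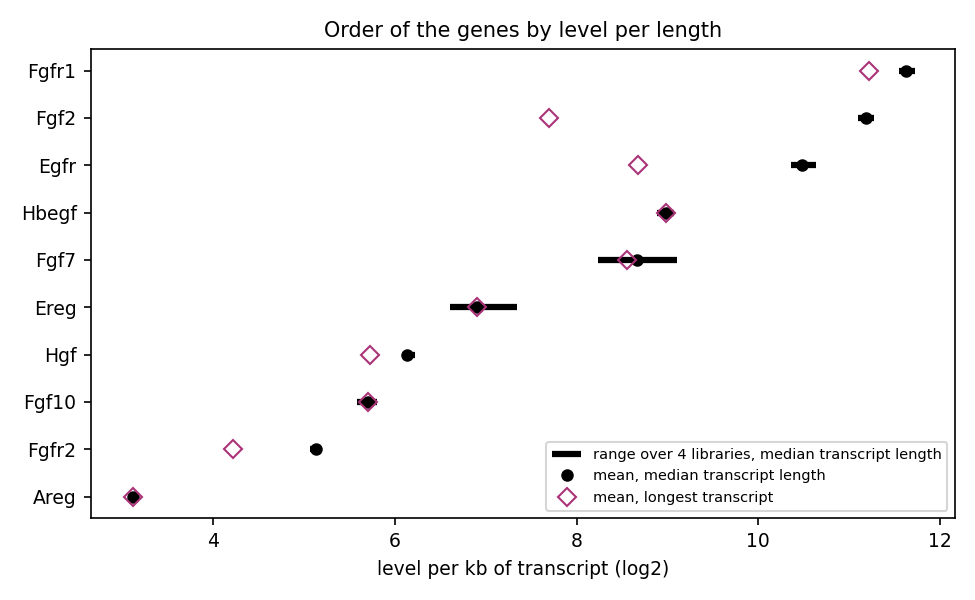
Level of each gene per kb of transcript (horizontal axis, log2), with dots and bars for the mean and range over 4 libraries at the median transcript length and open diamonds for the mean at the longest transcript. Fgf2 moves from 11.18 to 7.70 and Egfr from 10.48 to 8.68, while Fgfr1 is highest and Areg lowest by both lengths.

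The rest of the 3 pathways was read from 7 lists of 98 genes, of which 88 were in the table and 71 were tested. By limma, 1 of the 71 passed an adjusted p of 0.05, Dusp6, against 0.282% of all genes tested, and 24 (33.8%) had an unadjusted p under 0.05, against 16.0% of all genes. Those shares over all genes are the background for the counts of each list that follows. Among other FGF ligands, none of 7 tested genes passed and the median difference was -0.044. Fgf18 was at -0.26 ± 0.05 (adjusted p = 0.106), Fgf9 at -0.04 and Fgf21 at -0.14. In the list of FGF receptors, co-receptors and adaptors none of 8 passed (median 0.008). Flrt2, a transmembrane protein that binds FGF receptors, was at -0.26 ± 0.04 (adjusted p = 0.0649), Flrt1 at 0.09 and the decoy-like receptor Fgfrl1 at 0.11.

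Heparan sulphate chains bind FGFs, HGF and HBEGF at the cell surface, and 19 genes that carry, build or trim them were tested. None passed, 6 had an unadjusted p under 0.05 (5 with higher and 1 with lower values in GSK), and the median was 0.018. Sdc3, syndecan 3, had 10.81 and 10.99 in DMSO and 11.27 and 11.30 in GSK, a difference of 0.38 ± 0.07 (adjusted p = 0.0703). Gpc6, a glypican, was at 0.26 ± 0.05 and Hs6st2, a sulfotransferase, at 0.27 ± 0.05 (adjusted p = 0.0703 and 0.0953). In these 3 genes both GSK libraries lay above both DMSO libraries. They lay above in 5 of the 19, against 24.1% of all genes. They lay below in 4 of the 19, against 24.5%, among them Sulf2 at -0.43 ± 0.18 (limma adjusted p = 0.322).

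In the list headed HGF activation and receptor, none of 6 tested genes passed and none had an unadjusted p under 0.05 (median 0.002). Met, the HGF receptor, was low at 5.07 to 5.16 in the 4 libraries. Mst1r, the receptor of Mst1 rather than of HGF, was at -0.10, Spint2 at 0.06 and Spint1 at 0.02. Of 3 other EGF-family ligands none passed (median -0.006). Nrg1, neuregulin 1, was at -0.19 ± 0.08 (adjusted p = 0.319), Nrg4 at -0.01 and Egf at 0.00. Of 10 EGF-family receptors, sheddases and feedback genes none passed (median -0.040). Rhbdf2, an iRhom that carries the sheddase ADAM17 to the surface, was at 0.26 ± 0.05 (adjusted p = 0.101), and Lrig3 and Lrig1, of a family that restrains receptor tyrosine kinases, were at -0.38 ± 0.10 (adjusted p = 0.144) and -0.11. Adam17 was at -0.05 and Adam10 at -0.02.

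Of 18 tested feedback and target genes of ERK, 1 passed. Dusp6, an ERK phosphatase induced by ERK signalling, had 9.94 and 9.96 in DMSO and 10.32 and 10.40 in GSK. It rose by 0.41 ± 0.05 (adjusted p = 0.0382), with both GSK libraries higher, and lost the call with DMSO library 1 left out (adjusted p = 0.146), with GSK library 2 left out (0.0819) and in 3 other settings. At an unadjusted p under 0.05 there were 12 of the 18, against 16.0% of all genes, 5 with higher and 7 with lower values in GSK, and the median was 0.024. Myc, a growth-related transcription factor, was at -0.68 ± 0.09 (adjusted p = 0.0543), and Ier3, an early response gene, at -0.46 ± 0.08 (adjusted p = 0.0703). Feedback genes had estimates of both signs, with Spry4 at 0.24, Spry2 at -0.29 and Dusp5 at -0.29, none of which passed. Etv4, an ETS transcription factor, was at 0.44. The early genes Fos and Egr1, which also respond to stress and to tissue dissociation, were at -0.21 and -0.25. Fos had 15.16 and 14.98 in DMSO and 15.03 and 14.70 in GSK, with library 1 the higher in each group, as in Fgf7. This order is not particular to these genes. Adam10 had it too, at 11.08 and 10.88 in DMSO and 11.03 and 10.89 in GSK. Over all genes tested, deviations of same-numbered libraries correlated at 0.428. The part of dissociation in the values of Fgf7 and Ereg was not tested.

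**Figure D4:**
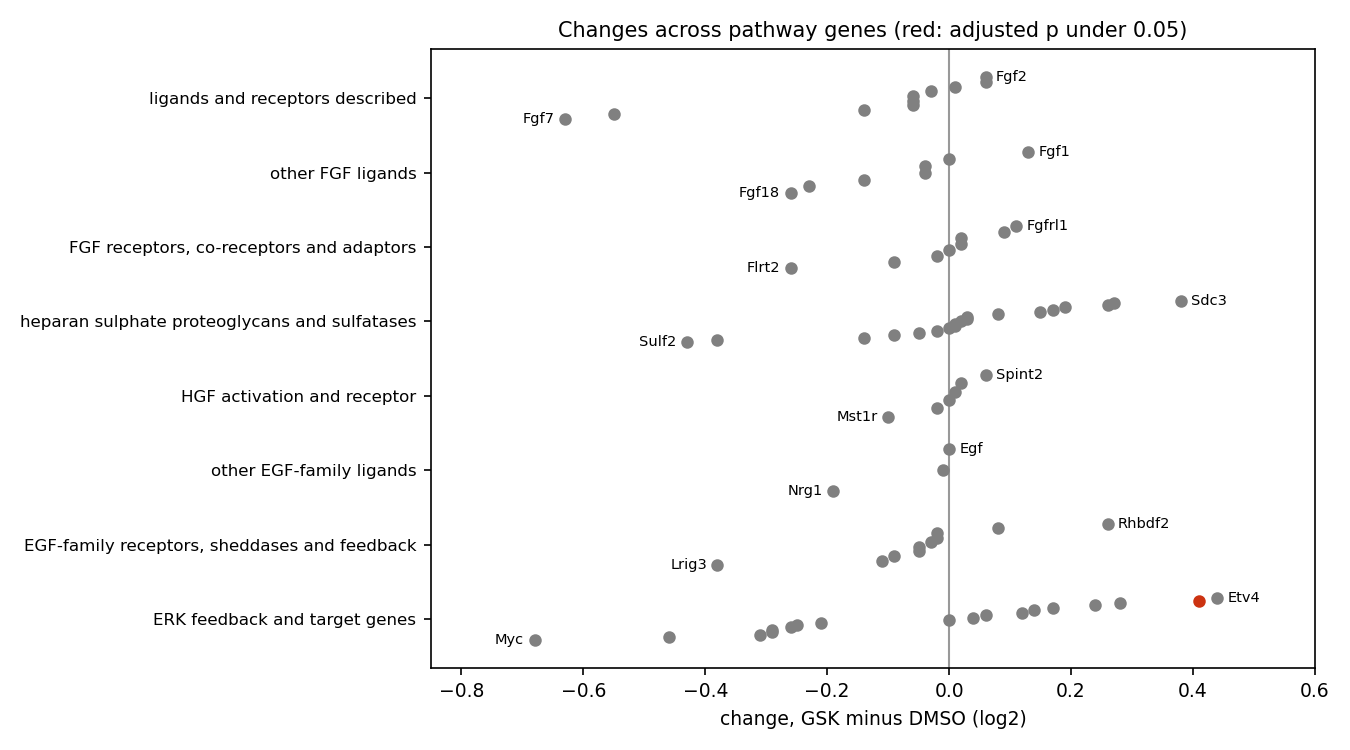
Difference between the groups (horizontal axis, GSK minus DMSO, log2) for each tested gene, 1 row per list, with the lowest and highest gene of each row named and genes past an adjusted p of 0.05 in red. Dusp6, at 0.41 beside Etv4, is the only red point.

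The genes whose values over the 4 libraries, each centred on its own mean, lay nearest to Fgf7 were F3, Atf3, Ifrd1, Mt2 and Ptgis, with root mean square differences of 0.020 to 0.037 (log2). F3 encodes tissue factor, Atf3 a stress-induced transcription factor, Mt2 a metallothionein and Ptgis prostacyclin synthase. Atf3 had 11.81 and 11.56 in DMSO and 11.21 and 10.93 in GSK, a difference of -0.61 ± 0.11. The 5 genes were at -0.58 to -0.64, and none passed (adjusted p = 0.0654 to 0.106). They were chosen by these same values, so differences near that of Fgf7 follow from the choice. The likeness covers 4 libraries and describes these libraries.

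Of the 10 fibroblast markers none passed. Both GSK libraries lay below in 3 (Pdpn at -0.37, Dcn at -0.31 and Col3a1 at -0.30), against 24.5% of all genes. They lay above in 1 (Thy1), against 24.1%. Markers of other cells also differed between libraries. In bulk RNA, fewer cells of a type and less RNA per cell cannot be told apart. The 8 pericyte and smooth muscle markers, cells that the depletion did not target, had a summed level (log2) of 13.92 and 14.20 in DMSO and 14.33 and 14.33 in GSK, lowest in DMSO library 1, where Fgf7 and Ereg were highest. None of the 8 passed. Both GSK libraries lay above in 4 of them, against 24.1% of all genes, and below in 2, Kcnj8 at -0.21 and Abcc9 at -0.12. The epithelial list had a summed level of 9.13 and 9.07 in DMSO and 8.93 and 8.73 in GSK, carried by Krt19 at 8.82. Its 3 tested genes had both GSK libraries below, against 24.5% of all genes, none passed, and Epcam stood at 0.32 and Cdh1 at 2.22 to 2.25. Leukocyte markers summed to 11.14 and 10.86 in DMSO and 11.99 and 11.40 in GSK, carried by Cd53 at 11.03. Of 6 tested, both GSK libraries lay above in 1 and below in 2, and none passed. The 1 above was Cd53, which differed by 0.91 ± 0.20 (limma adjusted p = 0.116). Cd3e, the next highest, was at -0.30 ± 0.14 (adjusted p = 0.361), with both GSK libraries below. Itgam stood at 1.45 to 1.48 and Adgre1 at 0.78 to 0.81. Endothelial markers summed to 10.85 and 10.85 in DMSO and 11.48 and 11.09 in GSK, carried by Flt1 at 10.84, with Emcn at 3.06 to 3.09. Of 5 tested, both GSK libraries lay above in 2 and below in 0, and none passed. Flt1, 1 of those above, differed by 0.51 ± 0.13 (limma adjusted p = 0.15). The part of these other cells in the values of Fgf7 and Ereg was not tested.

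**Figure D5:**
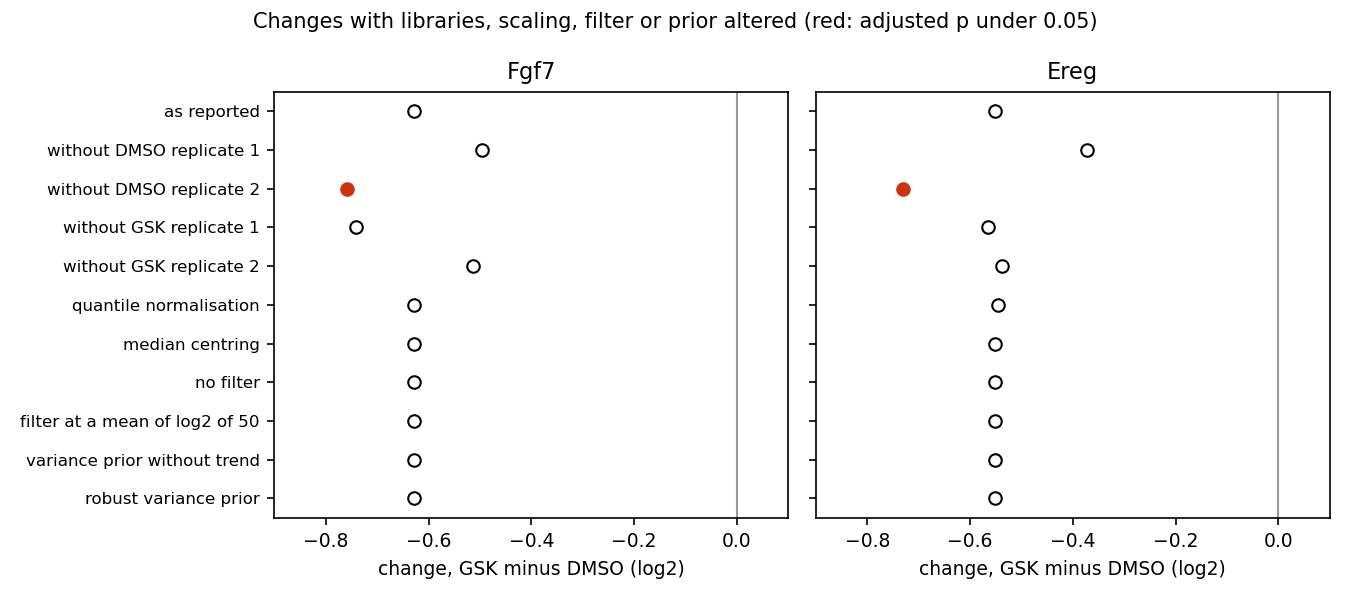
Difference of Fgf7 and Ereg (horizontal axis, GSK minus DMSO, log2) as reported and with a library left out or the scaling, filter or variance prior altered, in red where the adjusted p was under 0.05. All estimates are negative, from -0.758 to -0.497 for Fgf7 and from -0.730 to -0.373 for Ereg, and the only red point of each is that without DMSO library 2.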

How the data were processed

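The authors deposited log2 values in 1 table, a column for each library. RSEM 1.2.29, Bowtie2, DESeq2 1.12.4 and the assemblies mm10 and GRCh38 are listed, with no role for each, per the submitters' processing notes; how the values were transformed is not given in the sources used here, and the log2 unit was read from the values. Symbols, positions and lengths came from GENCODE M21 (GRCm38), where 22357 of 22456 identifiers matched, and promoter windows from RefSeq. The deposited values of the 14548 genes whose mean reached log2 of 10 (3.32) were tested with limma 3.58.1 (R 4.3.3), with no pseudocount, the group as the only term and a variance prior following the mean. Tests were two-sided, adjusted by Benjamini-Hochberg over all genes tested, with a threshold of 0.05. The script was tested on simulated data. Shared sequence was searched with blastn 2.17.0 (98% identity over 200 bases).

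The 10 genes, the lists and the rule for named genes were chosen with earlier results of these data known. The rule named all 10 genes, from each list the genes past the threshold and the 3 with the smallest p, and the 5 genes nearest to the one of the 10 with the smallest p. Met, Sulf2, Adam10, Adam17, Spry2, Spry4, Dusp5, Etv4, Fos, Egr1, Pdpn, Dcn, Col3a1, Thy1, Cd3e, Kcnj8 and Abcc9 were named after their values were seen. Alternatives left out each library or altered the scaling, the filter, the variance prior, the transcript length or the use of the replicate number.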

Additional observations from a re-analysis of the deposited data

How the results depend on the processing

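The number of genes called, 41, ranged from 7 to 194 with a library left out, and was 23 after quantile normalisation, 126 after median centring, 1 with no filter, 11 with a variance prior without trend and 138 with a robust prior. Of the 10 growth factor and receptor genes, 0 to 2 were called with a library left out (Fgf7 and Ereg, without DMSO library 2), and none under the scaling, filter and prior alternatives. Their median difference ranged from -0.086 to -0.044 with a library left out. In the pathway lists the count of 1 ranged from 0 to 4 with a library left out, was 0 after quantile normalisation, with no filter and without trend, and was 2 after median centring and with a robust prior.

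Small estimates changed sign with a library left out: Fgf2 ran from -0.011 to 0.124, Fgf10 from -0.139 to 0.074, Fgfr1 from -0.001 to 0.129, Hgf from -0.121 to 0.007, Hbegf from -0.079 to 0.098, Spint1 from -0.011 to 0.045, Egf from -0.018 to 0.025 and Nrg4 from -0.031 to 0.018. Nrg4 was at 0.003 after quantile normalisation. The cause was not tested. Fgf7 lay between -0.758 and -0.497 and Ereg between -0.730 and -0.373 under all 11 alternatives.

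With the replicate number as a block, 1374 genes, 2 of the 10 genes (Fgf7, adjusted p = 0.000147, and Ereg, 0.00376) and 24 pathway genes were called. Deviations of the same-numbered libraries correlated at 0.428. The labels do not say whether a number marks shared animals or handling. Whether same-numbered libraries share more than a number is therefore unknown, and this fit is no main result. Depth is unknown, and low genes such as Areg vary little on the deposited scale, whose transformation is not stated.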
